A study of Zea mays with 24 samples.

Results

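Some maize transcripts keep close to their well-watered level through drought and change only once water returns. The 22 probe sets described here, of 17621 gene probe sets on the array, show that pattern in both inbred lines studied, Han21 and Ye478. They were chosen by the mean signal of the 3 arrays of a group, taken as G = log2(mean signal + 5). A probe set was taken if, in each line, G stayed within 0.6 of control in moderate and in severe drought, was at least 1 higher than control after re-watering, and rested on a re-watered mean of at least 200 signal units. The genes pip1e, pip2f, GBSSIIa and gln2 were to be left out, and 0 probe sets were lost in this way. Every comparison with control within a line was therefore used for the choice, so those values are given as description and without a test.

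Both lines were sampled as seedlings with 3 leaves in 4 states: watered control, moderate drought, severe drought and re-watering after drought. Each of the 8 groups holds 3 arrays that the labels call biological replicates, 24 arrays in all. The labels give neither the length nor the strength of any treatment, nor how many plants went into an array. The series text speaks of 2 independent experiments and does not say which arrays came from which, so the 3 arrays of a group may not be 3 separate experiments, and a p-value here measures the spread between arrays only. The tissue is labelled shoot, and the RNA protocol names the mesocotyl, the stem between the seed and the coleoptile node. Neither line carries an introduced gene or mutation according to the labels, and each is 1 inbred genotype.

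When a wilted plant is watered, turgor returns, stomata reopen and growth resumes, and the transcripts of that phase need not be those of drought turned back. Recovery draws on amino acids for new protein. Tryptophan, one of these amino acids, is made when the beta subunit of tryptophan synthase joins indole to serine. In maize seedlings indole is also the start of the benzoxazinoids, defence compounds that grasses store as glucosides. In bulk tissue such as this, more transcript per cell and more cells that hold the transcript cannot be told apart.

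Median signals of the arrays lay between 155.3 and 194 units, and the log2 signals of replicates of a group had correlations of 0.915 to 0.979 over the brighter probe sets. Of 10 green shoot markers, 7 are on the array, and the lowest of their signals on any array was 780 units, for lhcb6, a light-harvesting protein gene. Of 4 root markers 0 are on the array, so root tissue could not be looked for. Green shoot markers moved too: after re-watering the means of lhcb6, rca1 and me3 lay above control in both lines and those of the other 4 below, as for rca1, the gene of Rubisco activase, with 2715 against 5819 units in Han21 and 2265 against 4522 in Ye478. All 5 seed markers are on the array, and o2 and sh2, genes of the endosperm, read at most 32.9 and 23.9 units. The storage globulin gene glb1 was high in severe drought, with a mean of 1133 units in Han21 and 1572 in Ye478, against 8.11 and 19.4 in control and 10.4 and 63.3 after re-watering. The oil body gene ole1 reached 168 units at most. The storage protein gene zp27 had re-watered means of 109 in Han21 and 109.6 in Ye478, against 70.7 and 66.2 in control. Of 5 markers of dividing tissue, the re-watered mean lay above control for 5 in Han21 and for 1 in Ye478, as for pcna1, a replication clamp gene, with 634 against 888 units in Han21 and 657 against 408 in Ye478. Replicate 1 gave the lowest of the 3 re-watered signals for 16 of the 22 probe sets in Han21 and for 7 of 22 in Ye478. Over all 22 in Han21, re-watered replicate 1 differed from the mean of the other replicates by a median of -0.23 (log2). The part of these shifts and of the markers in the results was not tested, and values without replicate 1 are given below where they matter. Ratios of 3' to 5' control probe sets, which fall or rise with RNA quality, gave 6 pairs. The mean of the re-watered arrays lay below control for 4 pairs in Han21 and for 2 in Ye478. The arrays did not overlap for 1 pair in each line, an actin pair, and there the re-watered arrays lay above control. The 6 pairs come from actin, ef1a and gapdh, and pairs of a gene share its 3' probe set.

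The array annotation names 1 gene for 8.24% of gene probe sets. Among the 22 it names only 1, the gene of Zm.4340.1.A1_at, TSB2, a tryptophan synthase beta subunit. The other 21 have an identifier and no gene name. Their Zm number is that of a sequence cluster, and the 22 fall into 19 such clusters, since 3 belong to Zm.5083 and 2 to Zm.6522. Probe sets of 1 cluster may measure the same transcript or close relatives. The endings _a_at and _x_at mark probe sets whose probes also match other transcripts. Such an ending is carried by 4 of the 22 (18.2%) and, with _s_at, by 12.6% of all gene probe sets.

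**Figure D1:**
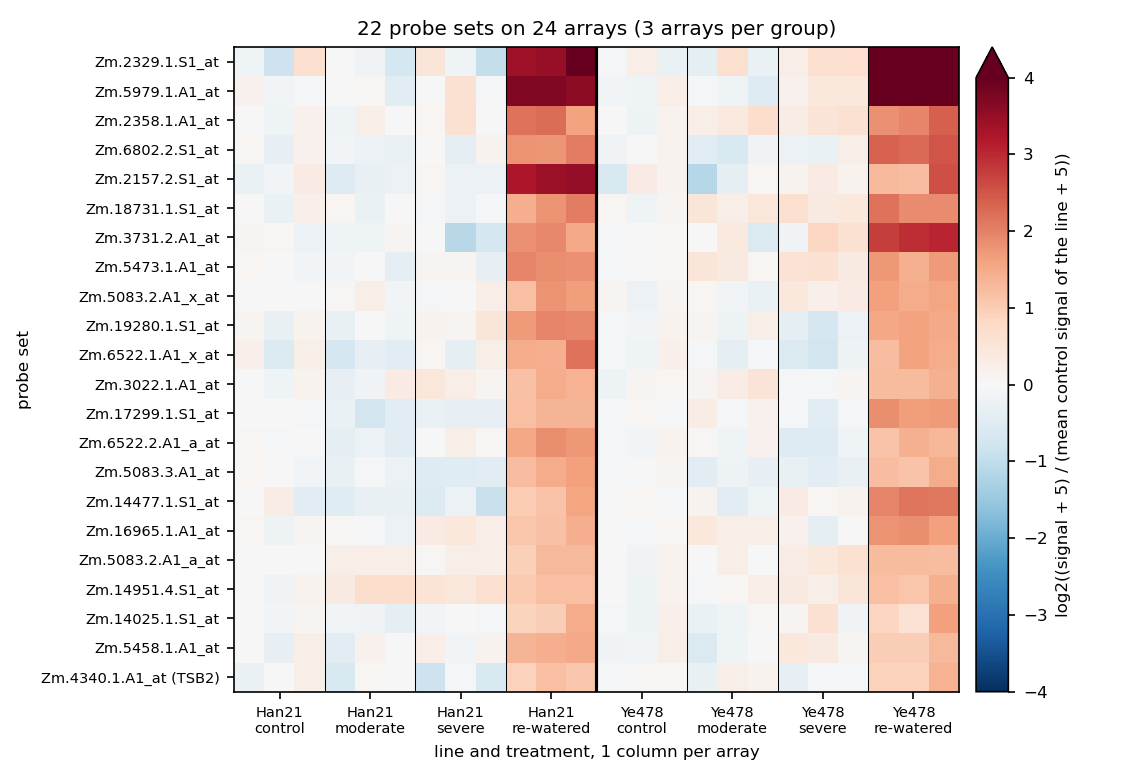
Colour gives log2 of (signal + 5) over (mean control signal of the same line + 5) for the 22 probe sets (rows, ordered by the smaller of their rises in the 2 lines) on each of the 24 arrays (columns). Values above 4, all in Zm.2329.1.S1_at and Zm.5979.1.A1_at, share the darkest red. The 3 re-watered columns of each line are red throughout, and the drought columns are pale because the rule held them near control.

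The size of the rise, meaning re-watered minus control on the scale of G, ran from 1.08 to 3.70 in Han21 with a median of 1.65. In Ye478 it ran from 1.08 to 5.75 with a median of 1.59. As ratios of mean signals, re-watered over control, the medians are 3.15 and 3.07. A rise of 2 or more was seen in 4 probe sets in Han21 and in 6 in Ye478, and one under 1.5 in 10 and 9, so most of the group changed moderately and a few changed a great deal. In a limma model, which fits log2 of signal + 4.56 on all arrays and pools the spread over groups and probe sets, the medians over the 22 are 1.64 in Han21 and 1.60 in Ye478, beside -0.04 and -0.07 over the 12111 probe sets tested. A probe set is said to be called where its adjusted p is under 0.05. All 22 were called higher after re-watering in each line, which is no finding since the rule asked for the rise. Of all probe sets tested 15.7% were called higher in Han21 and 12% in Ye478.

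The single arrays are those whose means chose the probe sets, so their order is given as a description and nothing is read from it. In Han21 the 3 re-watered arrays lay above all 9 other arrays of the line for 22 of 22 probe sets, and did so for 12.5% of all tested. In Ye478 this held for 21 of 22 and for 7.89% of all tested. The exception was Zm.14025.1.S1_at, where the lowest re-watered array read 153 units and the highest array in severe drought 157.

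Within the allowed band, drought left small shifts. In Han21 moderate drought 18 of 22 probe sets lay below control and 4 above, with a median of -0.14 and a range of -0.46 to 0.60. In Han21 severe drought 10 lay above and 12 below, with a median of -0.01. In Ye478 the median was 0.03 in moderate drought, with 12 above and 10 below, and 0.23 in severe drought, with 14 above and 8 below. A drought change under the limit can still be called: the model called 3 of the 22 in Han21 moderate drought, where 41.3% of all probe sets were called, and 6 in severe drought, where 57.5% were. For Ye478 the counts are 3 in moderate drought, beside 48.6%, and 8 in severe drought, beside 63.6%. Nothing is read from these counts, since the rule capped the changes.

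Probe sets that rise by at least 1 after re-watering to at least 200 units in both lines number 154. Of these, 22 (14.3%) kept within the drought limit. In 70 the limit was passed only upward, as where drought itself raised the signal, in 46 only downward, and in 16 both ways. Read from the other side, 3021 probe sets were within the drought limit and at least 200 units after re-watering in both lines. Beside the 22, 38 of them rose by at least 1 only in Han21 and 14 only in Ye478. The opposite pattern, a fall of at least 1 in both lines with drought levels held, was met by 44 of 3119 probe sets that were flat and had a control mean of at least 200 units.

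Most of the 22 gave clear signal before any stress. Signals of different probe sets are not on 1 scale of transcript number, so only their spread is given. Control means ran from 15.5 to 1906 units in Han21, with a median of 423, and from 14.3 to 1863 in Ye478, with a median of 341. The median of all gene probe sets was 184.6 and 184.4 units. In Han21 18 of 22 lay above that median and in Ye478 16. Re-watered means reached from 200.3 to 6264 units in Han21 and from 221 to 4620 in Ye478.

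A pair of probe sets went from near background to clear signal. Zm.2329.1.S1_at read 13.2, 6.66 and 26.8 units on the 3 control arrays of Han21, 15.2, 13.5 and 7.59 in moderate drought, and 23.8, 13.2 and 5.53 in severe drought. On the re-watered arrays of Han21 it read 211, 225 and 348. The Ye478 arrays gave 13.8, 18.1 and 10.9 units in control, 10.1, 24.8 and 11.0 in moderate drought, and 18.1, 25.2 and 25.9 in severe drought. Re-watered Ye478 gave 1110, 1044 and 949. All 18 arrays outside re-watering thus lay under 27 units, below the 72.6 to 106.8 units that were asked of a tested probe set on an array, while the 6 re-watered arrays lay above 210. The ratios of mean signals, re-watered over control, are 16.8 in Han21 and 72.5 in Ye478. With control near background these ratios are uncertain in size.

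Zm.5979.1.A1_at behaved alike from a slightly higher base. Its control signals were 58.4, 47.1 and 49.0 units in Han21 and 27.0, 25.6 and 36.5 in Ye478. Moderate drought gave 50.6, 53.8 and 37.1 in Han21 and 28.0, 25.8 and 19.4 in Ye478. Severe drought gave 50.5, 81.3 and 48.5 in Han21 and 34.0, 41.5 and 42.0 in Ye478. After re-watering it read 728, 728 and 669 in Han21 and 1003, 953 and 695 in Ye478. The re-watered mean signals are 13.8 and 29.7 times those of control. The lowest re-watered array of Han21 was 8.22 times the highest other array of the line. These 2 probe sets entered the tested set only through their re-watered arrays, and the other 20 also passed the filter outside re-watering.

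Next in size came Zm.2358.1.A1_at and Zm.6802.2.S1_at, the remaining 2 of the 4 unnamed probe sets with the largest smaller rise. Zm.2358.1.A1_at read 135, 120 and 156 units in Han21 control and 636, 664 and 431 after re-watering, and in Ye478 199, 170 and 218 in control and 715, 770 and 1044 after re-watering. Its Ye478 drought signals, 232 to 323 units, all lay above the 3 controls of the line, a shift of 0.46 in moderate and 0.48 in severe drought. Zm.6802.2.S1_at read 566, 428 and 608 in Han21 control and 1871, 1818 and 2231 after re-watering. In Ye478 it went from 353, 388 and 430 to 2042, 1889 and 2235 units. For both probe sets the re-watered arrays were apart from every other array of their line.

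Zm.2157.2.S1_at had the largest rise in Han21 after the 2 near-silent probe sets. Han21 control arrays read 393, 437 and 599 units, moderate drought 333, 387 and 405, severe drought 498, 407 and 403, and re-watering 4570, 5173 and 5470. Ye478 started higher and was less even: control arrays read 578, 1123 and 980, moderate drought 403, 700 and 951, severe drought 996, 1133 and 982, and re-watering 2209, 2113 and 5337. Replicate 3 supplies much of the Ye478 mean, and without replicate 3 this probe set no longer met the rule.

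Zm.3731.2.A1_at ran the other way, with the larger rise in Ye478. Its Han21 signals were 674, 654 and 529 units in control, 618, 281 and 380 in severe drought, and 2226, 2351 and 1775 after re-watering. Ye478 gave 328, 351 and 353 in control, 309, 611 and 530 in severe drought, and 2365, 2727 and 2894 after re-watering. Han21 thus lay above Ye478 in control, and after re-watering every Ye478 array lay above every Han21 array. Zm.18731.1.S1_at read 233, 191 and 262 units in Han21 control against 137, 115 and 141 in Ye478, and 630, 804 and 969 against 615, 495 and 502 after re-watering. Its lines were thus apart in control and after re-watering, while their severe drought arrays overlapped.

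**Figure D2:**
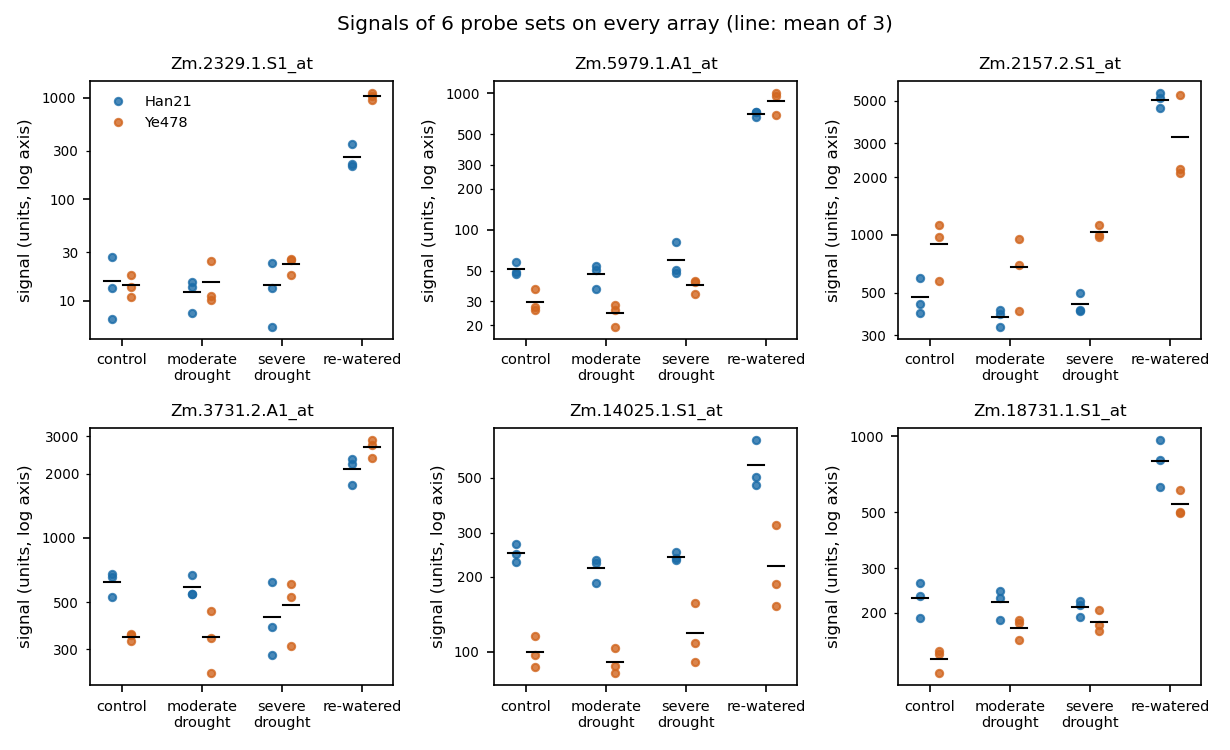
Signal in units (log axis) of 6 probe sets on every array of Han21 (blue) and Ye478 (orange) in the 4 states; each point is 1 array and each bar the mean of 3. Zm.2329.1.S1_at and Zm.5979.1.A1_at rise from under 82 units, Zm.2157.2.S1_at has 1 re-watered Ye478 array far above the other 2, and in Zm.14025.1.S1_at the Ye478 arrays overlap between severe drought and re-watering.

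Zm.6522.2.A1_a_at was bright in every group. Its Han21 control arrays read 2017, 1810 and 1858 units and its re-watered arrays 5581, 6922 and 6291. Ye478 gave 1785, 1744 and 2059 in control and 4150, 4995 and 4715 after re-watering. The drought arrays of both lines ran from 1290 to 2206 units and overlapped control in Han21 severe drought and Ye478 moderate drought. Its cluster partner in the group, Zm.6522.1.A1_x_at, was 3.41 times its control in Han21 and 2.76 times in Ye478 by mean signal.

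Zm.14477.1.S1_at read 82.0, 101 and 59.6 units in Han21 control and 169, 183 and 249 after re-watering, and its mean of 200.3 units only just reached the limit of the rule. Ye478 gave 71.9, 76.5 and 70.0 in control and 297, 341 and 331 after re-watering. Zm.14025.1.S1_at read 247, 230 and 272 in Han21 control and 467, 503 and 709 after re-watering, while Ye478 gave 97.3, 87.2 and 116 in control and 187, 153 and 323 after re-watering. For this probe set replicate 3 stands above the other 2 re-watered arrays in both lines, and without replicate 3 it no longer met the rule.

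For the other 10 unnamed probe sets the values are summarised. Their rises, as ratios of re-watered to control mean signal, were lowest in Han21 at 2.23 for Zm.14951.4.S1_at, 2.29 for Zm.5083.2.A1_a_at and 2.40 for Zm.16965.1.A1_at. The highest ratio in Han21 was 3.74 for Zm.5473.1.A1_at. In Ye478 the ratios ran from 2.17 for Zm.5458.1.A1_at to 3.42 for Zm.16965.1.A1_at. Zm.14951.4.S1_at sits at the edge of the drought limit. Its Han21 arrays gave 1883, 1736 and 2099 units in control, 2455, 3107 and 3111 in moderate drought, 2781, 2637 and 2944 in severe drought, and 3943, 4425 and 4369 after re-watering, so in that line drought signals already stood above all controls.

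The probe sets nearest each limit of the rule lie close together. On the smaller rise, TSB2 (1.08), Zm.5458.1.A1_at (1.10) and Zm.14025.1.S1_at (1.11) were just inside. Just outside were Zm.13244.1.S1_at of sat2 (0.97), Zm.3829.1.S1_at (0.96), and Zm.175.1.S1_at of GAPN (0.94), the non-phosphorylating glyceraldehyde-3-phosphate dehydrogenase that yields NADPH in the cytosol. On the largest drought change, Zm.14951.4.S1_at (0.60), Zm.2329.1.S1_at (0.54) and Zm.14477.1.S1_at (0.53) were inside. Zm.4350.1.A1_at (0.61), Zm.3670.1.S1_x_at (0.66) and Zm.18811.1.A1_at of dxs1 (0.67), which starts the plastid route to isoprenoids, were outside. On the signal, Zm.14477.1.S1_at (200.3 units), Zm.14025.1.S1_at (221) and Zm.2329.1.S1_at (261) were inside, and Zm.16588.1.A1_at (148), Zm.13885.1.S1_s_at (104) and Zm.14021.1.S1_at (40.9) outside.

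TSB2 is the only one of the 22 with a gene name in the array annotation, and it has the smallest rise of all. Its Han21 signals were 309, 368 and 435 units in control, 243, 393 and 374 in moderate drought, 207, 357 and 242 in severe drought, and 707, 869 and 788 after re-watering. Its Ye478 signals were 294, 321 and 319 in control, 254, 364 and 343 in moderate drought, 245, 304 and 299 in severe drought, and 589, 591 and 816 after re-watering. In both lines the re-watered arrays lay above every other array, and control and drought arrays overlapped. The ratio of mean signals, re-watered over control, is 2.13 in Han21 and 2.14 in Ye478. The rises of the lines differ by 0.02 ± 0.29 (SE) on the log2 scale of the model. Without replicate 2 or without replicate 3 TSB2 did not meet the rule.

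Maize carries a second gene for this subunit, TSB1, and plants that lack both, the orange pericarp mutants, pile up indole. TSB1 and the genes around indole were looked up because TSB2 was found among the 22, with its values known. TSB1, measured by Zm.17.1.A1_at, read 268, 344 and 405 units in Han21 control, 181, 208 and 212 in severe drought, and 632, 926 and 647 after re-watering. In Ye478 it read 333, 368 and 365 in control, 172, 147 and 142 in severe drought, and 859, 955 and 1135 after re-watering. The groups did not overlap in either line: severe drought lay below control and re-watering above it.

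TSB1 rose after re-watering by 1.10 ± 0.17 (SE, log2) in Han21 (limma adjusted p = 3.49e-05) and by 1.45 ± 0.17 in Ye478 (adjusted p = 1.00e-06). In severe drought it fell by 0.73 ± 0.17 in Han21 (limma adjusted p = 0.00098) and by 1.19 ± 0.17 in Ye478 (adjusted p = 3.09e-06). The moderate drought change was -0.12 ± 0.17 and -0.18 ± 0.17 and was not called. TSB1 therefore missed the group by its fall in severe drought, not by its rise. The model put the severe drought change of TSB2 at -0.48 ± 0.20 in Han21 and -0.14 ± 0.20 in Ye478.

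Neither of the genes looked up for making free indole was called higher after re-watering. The gene igl1 encodes an indole-3-glycerol phosphate lyase that releases volatile indole. Its change after re-watering was -0.02 ± 0.14 in Han21 (limma adjusted p = 0.944) and -0.20 ± 0.14 in Ye478 (adjusted p = 0.307). Its Han21 arrays read 486, 401 and 397 units in control and 457, 368 and 445 after re-watering, and overlapped. The gene bx1 encodes the lyase that feeds indole into benzoxazinoids. After re-watering bx1 was below control by 2.28 ± 0.24 in Han21 (limma adjusted p = 2.05e-07) and by 1.25 ± 0.24 in Ye478 (adjusted p = 0.000358). Its Han21 arrays read 4271, 6194 and 5477 in control and 1244, 950 and 1069 after re-watering, and its Ye478 arrays 6333, 3735 and 4422 against 2067, 2111 and 1768, with no overlap.

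In Ye478 bx1 had already fallen in severe drought, by 2.03 ± 0.24 (limma adjusted p = 1.79e-07), to 1493, 1396 and 736 units. The re-watered arrays of that line lay above these and below control. In Han21 bx1 was above control in moderate drought, by 0.88 ± 0.24 (limma adjusted p = 0.0049). Of 3 later benzoxazinoid genes that were tested, bx6, glu1 and glu2, 1 was called lower after re-watering in each line. The dioxygenase gene bx6 was below control in Han21 by 0.70 ± 0.21 (limma adjusted p = 0.0108), after means of 2555 units in control, 303 in severe drought and 1546 after re-watering. The mean was thus lower in severe drought than after re-watering, as in Ye478 with 3629, 259 and 3132 units. The beta-glucosidase gene glu2 was below control in Ye478 by 0.86 ± 0.19 (adjusted p = 0.00157), with means of 3284 in control, 1501 in severe drought and 1878 after re-watering. The beta-glucosidase gene glu1 changed by 0.53 ± 0.32 and 0.15 ± 0.32 after re-watering and was not called, while its severe drought change was -3.47 ± 0.32 in Han21 (limma adjusted p = 9.13e-09) and -3.08 ± 0.32 in Ye478 (adjusted p = 3.80e-08). Of all probe sets tested 19.2% were called lower after re-watering in Han21 and 16.3% in Ye478.

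**Figure D3:**
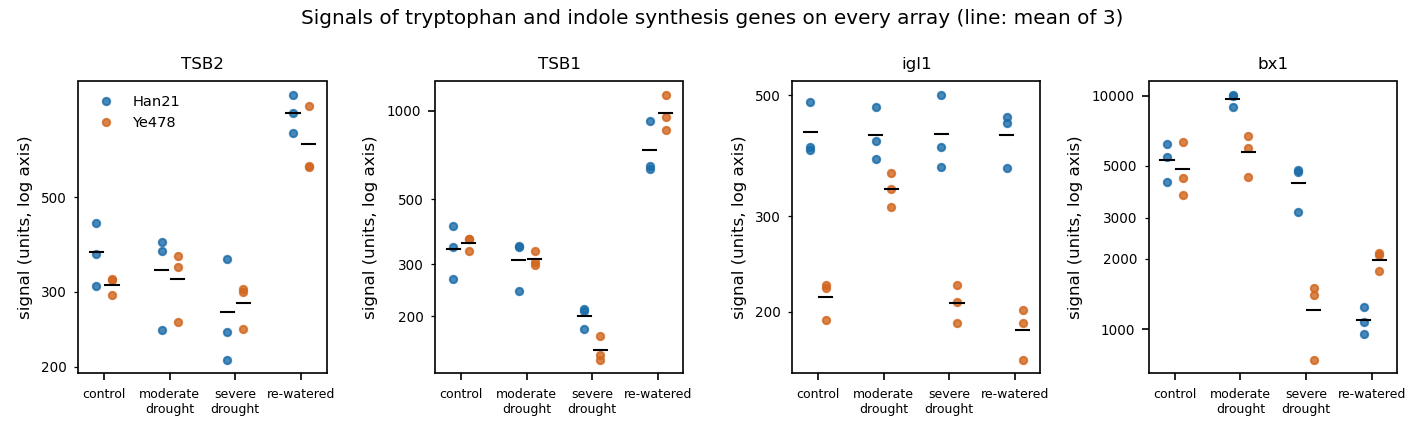
Signal in units (log axis, each panel with its own range) of TSB2, TSB1, igl1 and bx1 on every array of Han21 (blue) and Ye478 (orange); points are arrays and bars means of 3. TSB2 and TSB1 are highest after re-watering in both lines, TSB1 is lowest in severe drought, and bx1 is low after re-watering. Levels are not comparable between panels, since each is another probe set.

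Other probe sets of a cluster show whether a pattern belongs to the whole cluster. In 6 clusters the array holds 22 further probe sets that missed the rule, of which 17 were tested. After re-watering 5 of the 17 were called higher in Han21, 2 lower and 10 neither, with a median change of 0.39. In Ye478 7 were called higher and the other 10 were not called, with a median of 0.28. Beside these stand 15.7% called higher and 19.2% lower among all tested in Han21, and 12% and 16.3% in Ye478.

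In the cluster Zm.5083 every tested probe set was higher after re-watering. Its 3 members are Zm.5083.2.A1_x_at, Zm.5083.3.A1_at and Zm.5083.2.A1_a_at. Their mean signals after re-watering were 3.0, 2.77 and 2.29 times control in Han21 and 2.98, 2.46 and 2.40 times control in Ye478. The 3 tested partners were called higher in both lines: Zm.5083.1.A1_a_at by 1.04 ± 0.12 in Han21 and 1.24 ± 0.12 in Ye478, Zm.5083.1.A1_x_at by 1.15 ± 0.12 and 1.15 ± 0.12, and Zm.5083.4.A1_x_at by 1.00 ± 0.10 and 1.58 ± 0.10 (log2 change, SE). The severe drought changes of these partners in Ye478, on the scale of G, were 0.79, 0.69 and 0.99 and so passed the limit of 0.6, and the Han21 rise of Zm.5083.4.A1_x_at, 0.998, was also just short of 1. Zm.5083.4.A1_x_at went from a mean of 386 units in Ye478 control to 570 in moderate drought, 769 in severe drought and 1161 after re-watering.

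In the cluster Zm.2157 1 probe set of 8 tested met the rule. Zm.2157.2.S1_at was 10.7 times control in Han21, by mean signal. Of its 7 tested partners, Zm.2157.1.A1_a_at rose by 0.41 ± 0.10 in Han21 (limma adjusted p = 0.00402) and Zm.2157.5.A1_x_at by 0.43 ± 0.11 (adjusted p = 0.00556). Falls were called in Han21 for Zm.2157.6.S1_x_at, by 0.57 ± 0.19 (limma adjusted p = 0.0229), and for Zm.2157.8.S1_at, by 1.27 ± 0.46 (adjusted p = 0.0348). In Ye478 the changes of the 7 partners ran from -1.16 ± 0.46 for Zm.2157.8.S1_at to 0.28 ± 0.16 for Zm.2157.7.S1_at, and the lowest limma adjusted p was 0.0634.

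The cluster Zm.14951 split in another way. The 4 tested partners of Zm.14951.4.S1_at were raised by drought itself: Zm.14951.1.S1_a_at had means of 991 units in Han21 control, 4456 in moderate drought, 5118 in severe drought and 1611 after re-watering, and in Ye478 of 758, 5254, 7660 and 2554. The mean of Zm.14951.1.S1_a_at was thus highest in severe drought and lower after re-watering, while Zm.14951.4.S1_at was highest after re-watering in both lines. In Ye478 the 4 partners were still called higher than control after re-watering, by 0.69 ± 0.18 to 1.74 ± 0.37. In Han21 the partners were not called after re-watering. Zm.6802.1.S1_at, the partner of Zm.6802.2.S1_at, changed by -0.03 ± 0.12 after re-watering in Han21 (limma adjusted p = 0.896), and in severe drought of that line by 0.63 ± 0.12 (adjusted p = 0.000136). Zm.3731.1.A1_at, the partner of Zm.3731.2.A1_at, changed by -0.11 ± 0.16 after re-watering in Han21 (limma adjusted p = 0.64). The partner in Zm.6522, Zm.6522.2.A1_at, had a mean of 3.17 units in Han21 control and 281 in Ye478 control, so it gives a change in Ye478 only, 0.71 ± 0.34 (limma adjusted p = 0.123).

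**Figure D4:**
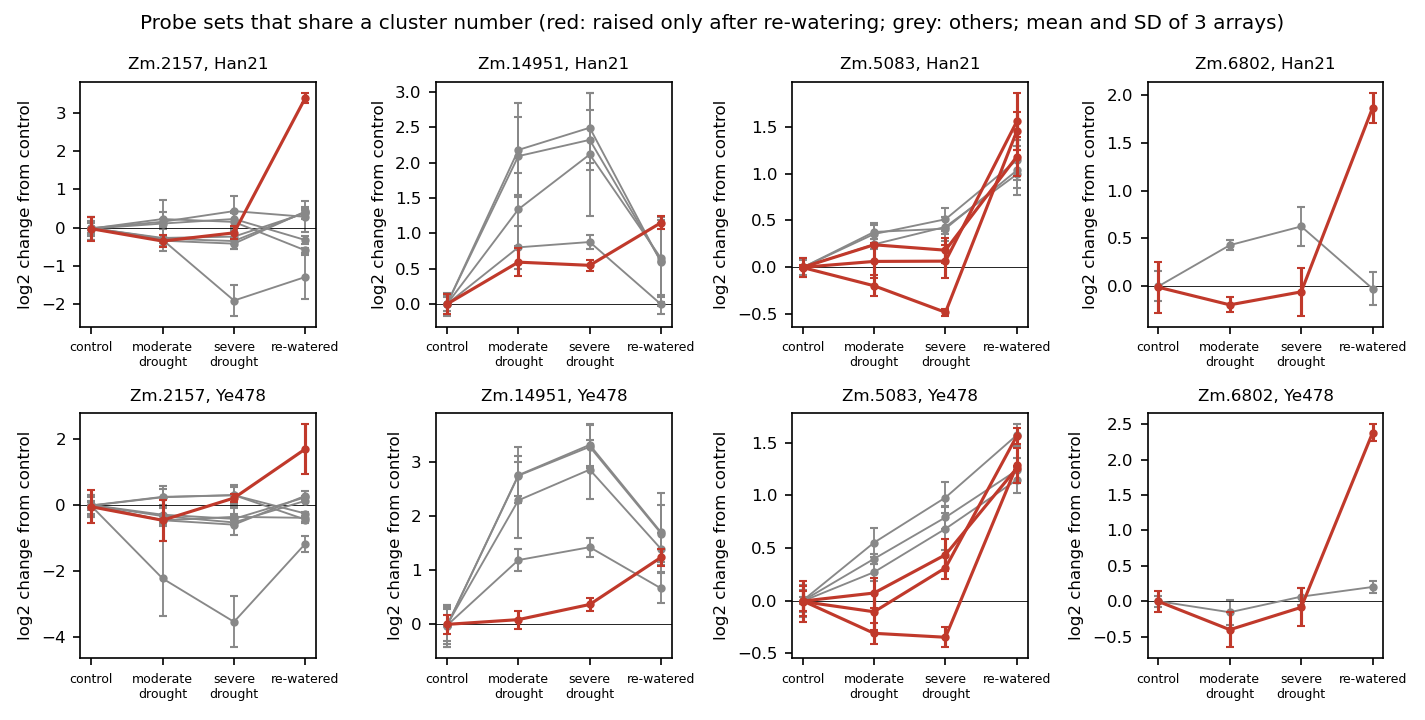
Log2 change from the mean control signal of the line (signal + 5; mean and SD of 3 arrays) for probe sets of 4 clusters, Han21 above and Ye478 below; probe sets under 100 units in every group are not drawn. Red lines are the probe sets raised only after re-watering. In Zm.5083 red and grey lines all end above control, in Zm.2157 and Zm.6802 the red line ends above the grey ones in both inbred lines, and in Zm.14951 the grey lines peak in drought.

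The rises of the lines resembled each other in order. Across the 22 probe sets the rise in Han21 and in Ye478 correlated at Pearson r = 0.804 and Spearman rho = 0.726, a description over probe sets that were all required to rise in both and that share arrays. The rise was larger in Han21 for 10 and in Ye478 for 12, and for 15 of 22 the lines differed by under 0.5. The widest gaps, given as Han21 minus Ye478 on the log2 scale of the model without a test, were 1.66 ± 0.43 (SE) for Zm.2157.2.S1_at, -1.98 ± 0.53 for Zm.2329.1.S1_at, -1.17 ± 0.36 for Zm.3731.2.A1_at, -1.02 ± 0.29 for Zm.5979.1.A1_at and -0.81 ± 0.29 for Zm.14477.1.S1_at.

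The level in watered plants was compared between the lines, and this comparison the rule did not use. Of the 22 probe sets 9 differed between Han21 and Ye478 controls at an adjusted p under 0.05, and 32.6% of all 12111 tested did. Of the 9, 8 were higher in Han21, where 17.2% of all tested were, and 1 was lower, where 15.3% were. The median over the 22 was 0.22 on the log2 scale, against 0.01 over all tested with quartiles of -0.28 and 0.30. The count rests on single arrays: without replicate 1 it was 4, without replicate 2 it was 4, without replicate 1 of the Han21 control alone it was 3, and without replicate 1 of the Ye478 control alone it was 5.

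Zm.14025.1.S1_at had the widest control difference. Han21 arrays read 247, 230 and 272 units and Ye478 arrays 97.3, 87.2 and 116, a difference of 1.28 ± 0.22 (SE, log2, limma adjusted p = 9.55e-05). Zm.3731.2.A1_at was higher in Han21 by 0.83 ± 0.26 (limma adjusted p = 0.0153), Zm.18731.1.S1_at by 0.78 ± 0.16 (adjusted p = 0.000589) and Zm.5979.1.A1_at by 0.72 ± 0.21 (adjusted p = 0.00954). Every control array of Zm.5979.1.A1_at lay below the level asked of a tested probe set, so its value compares dim signals. Without it and Zm.2329.1.S1_at, which also lay below that level in control, 8 of 20 were called. For each of these 4 the Han21 control arrays lay above all Ye478 control arrays. Zm.2157.2.S1_at was the only one lower in Han21, by -0.87 ± 0.31 (limma adjusted p = 0.0322), and there the arrays overlapped, with 599 units on the highest Han21 array and 578 on the lowest Ye478 array.

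The remaining 4 called differences, of Zm.6802.2.S1_at, Zm.17299.1.S1_at, Zm.5083.2.A1_x_at and Zm.5083.2.A1_a_at, were between 0.33 and 0.44. Zm.14025.1.S1_at and Zm.18731.1.S1_at were called under all 18 other settings tried, and 10 of the 22 under none. TSB2 differed between the controls by 0.24 ± 0.20 (limma adjusted p = 0.428). Zm.3731.2.A1_at and Zm.5979.1.A1_at, both lower in Ye478 control, had the larger rise there, and Zm.2157.2.S1_at, lower in Han21 control, had the larger rise in Han21; the control level enters both values, so they are not independent.

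**Figure D5:**
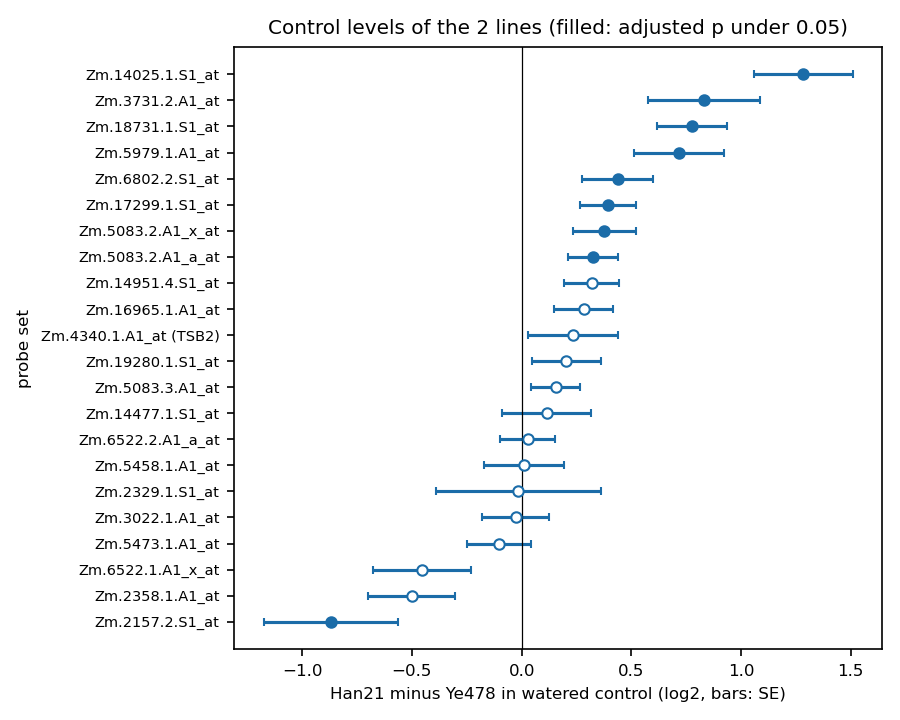
Difference between Han21 and Ye478 control levels of the 22 probe sets on the log2 scale, with standard errors of the model of all arrays (3 control arrays per line). Filled points have an adjusted p under 0.05: 8 lie to the right of 0, higher in Han21, and Zm.2157.2.S1_at to the left.

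For context, 20 lists of gene names were drawn up for pathways that recovery could touch. The annotation names few genes, and the lists were patterns matched to gene symbols and synonyms only, without gene descriptions. Only 6 lists matched a gene on the array and 5 a tested one, 15 genes in all. Genes such as rca1, lhcb6 and expB6 are on the array and matched no list. Most pathways were therefore not judged. After re-watering 4 of the 15 were called higher and 6 lower in Han21, and 1 higher and 5 lower in Ye478. Of all probe sets tested 15.7% were called higher and 19.2% lower in Han21, and 12% and 16.3% in Ye478. Counts in Ye478 fell to 3 of 15 without replicate 1 and to 3 without replicate 2.

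Among 8 genes under transcription factors, 2 were called higher in Han21 and 2 lower, and in Ye478 3 were called lower, with median changes of -0.03 and -0.15 beside -0.04 and -0.07 over all tested. The homeobox gene homeobox2 rose in Han21 by 1.06 ± 0.17 (limma adjusted p = 3.92e-05) and in Ye478 changed by -0.04 ± 0.17; in severe drought it had already risen, by 0.81 ± 0.17 (adjusted p = 0.000258) and 0.67 ± 0.17 (adjusted p = 0.00138). MYB1_2, also known as ZmMYB31, a repressor of lignin genes, fell in both lines, by 1.54 ± 0.22 (limma adjusted p = 1.25e-05) and 1.58 ± 0.22 (adjusted p = 8.85e-06). Amy2, a starch-degrading beta-amylase that the list caught through letters in a synonym, was also below control after re-watering. The differences were 1.85 ± 0.32 in Han21 and 0.91 ± 0.32 in Ye478. Its means were lower still in severe drought, with 260 units in Han21 and 54.3 in Ye478, against 461 and 586 after re-watering.

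Catalases break down hydrogen peroxide. Of the 2 catalase genes that the list matched by name, both were called lower in Han21 and 1 in Ye478. CAT3 was below control after re-watering by 0.69 ± 0.17 in Han21 (limma adjusted p = 0.00358) and by 1.56 ± 0.17 in Ye478 (adjusted p = 3.89e-07). Its severe drought change was already -1.32 ± 0.17 in Ye478 (limma adjusted p = 8.59e-07), and 0.24 ± 0.17 in Han21. The fall of cat1 was 0.56 ± 0.11 in Han21 (limma adjusted p = 0.00066), with a change of 0.15 ± 0.11 in Ye478. A dimmer cat1 probe set, Zm.6357.3.S1_a_at, was not called in Han21, at -0.54 ± 0.30 (limma adjusted p = 0.184). The only dehydrin gene that the list matched by name, dehydrin3, codes for a protein that shields cells from drying. It was still above control after re-watering, by 0.90 ± 0.18 in Han21 (limma adjusted p = 0.000434) and 2.87 ± 0.18 in Ye478 (adjusted p = 4.97e-11). The list of proton pumps and transporters had 2 tested genes, of which the one named ATPase carries the synonym myosin1 and so is no pump by its annotation. It rose in Han21 by 0.99 ± 0.23 (limma adjusted p = 0.00235) and meatpase fell by 0.42 ± 0.16 (adjusted p = 0.0477), while in Ye478 their changes were 0.44 ± 0.23 and -0.08 ± 0.16. Of 2 cytoskeleton genes 1 was called lower in each line. The list of histone and replication genes matched only 1 gene by name, the cyclin gene csh9, and it was not tested. The replication genes pcna1, pcna2, MCM6 and MCM7 are on the array, among the markers of dividing tissue, and were not matched by this list.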

How the data were processed

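RNA from 24 samples was hybridised to an Affymetrix maize array. The deposited values are signal intensities on a linear scale. GCOS and MAS5 are named in the submitters' processing notes, without versions. The 2% trimmed mean was 500.1 to 500.2 units on every array, so the authors had scaled the arrays to each other. No raw probe values were used here and no further normalization was made.

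The members and gene lists were chosen with earlier results of these data known. Groups follow the sample titles. Of 17734 probe sets 113 are controls. The other 17621 entered the rule, and 12111 of them were tested, those above the array's 40th percentile (72.6 to 106.8 units) on at least 3 arrays. Log2 of signal + 4.56 (the 10th percentile of all signals) was fitted in limma with a mean per group over all arrays (eBayes with trend, 16 residual and 5.01 prior degrees of freedom). The Benjamini-Hochberg adjustment ran over all tested probe sets of a contrast, with a threshold of 0.05. The pipeline was tested on simulated data.

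Named in the text are the 1 member with a gene name, the 4 unnamed members with the largest smaller rise, called control differences, up to 3 genes per list and the probe sets at each threshold; further members were chosen after their values were seen. RefSeq gene names are from assembly Zm-B73-REFERENCE-NAM-5.0; 1377 of the 1452 probe sets with 1 gene name were found there. Arrays of the same replicate number deviated together (r = 0.154 to 0.692 for each pair), so a fit with the replicate as a block was an alternative. Others were quantile normalization, median centring, other filters and constants, eBayes without trend, fits of only the 2 groups compared, and leaving out replicates or arrays. The number of arrays limits the precision. Computation used limma 3.58.1 in R 4.3.3. Tables and plots were made in Python 3.11.15, with matplotlib 3.10.9, pandas 2.3.3 and numpy 2.4.6.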

Additional observations from a re-analysis of the deposited data

Results flagged for a closer look

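For 1 of 17 tested cluster partners and 7 genes of the lists the re-watering change differed between the lines by a test of the difference itself. The lists had 15 tested pathway genes, 3 of tryptophan and indole synthesis and 3 later benzoxazinoid genes. Of all 12111 probe sets tested, 13.7% were called. Partners are probe sets that missed the rule, which itself used these rises. Each difference is Han21 minus Ye478 on the log2 scale. Zm.5083.4.A1_x_at rose less in Han21 than in Ye478, by -0.58 (limma adjusted p = 0.0118). The widest difference was that of dehydrin3, -1.97 (limma adjusted p = 1.83e-05), which stayed further above control in Ye478. After re-watering bx1 lay further below control in Han21, with a difference of -1.02 (limma adjusted p = 0.0447). For cat1 the difference was -0.71 (limma adjusted p = 0.00567) and for CAT3, which lay further below control in Ye478, 0.87 (adjusted p = 0.0208). The dimmer cat1 probe set Zm.6357.3.S1_a_at gave -0.69 and was not called (limma adjusted p = 0.308). Of the genes under transcription factors, homeobox2 differed by 1.10 (limma adjusted p = 0.00324), homeobox3 by 1.06 (adjusted p = 0.0433) and MYB38_1 by 1.13 (adjusted p = 0.0115). The same test was not read for the 22 probe sets, since the rule chose them by their rises.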

How the results depend on the processing

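Leaving out each replicate number or each control array in turn gave 3 to 8 members called between the control lines. With only the arrays of the 2 groups in the fit 5 were called, with differences of at least 1 only 1, with 1 probe set per cluster 8, without the 2 members dim on all control arrays 8, and with the replicate block 12 of 22 in place of 9; the block called Zm.14951.4.S1_at, Zm.2358.1.A1_at and Zm.6522.1.A1_x_at besides. The totals over all probe sets with the replicate block or with only the 2 groups are not given here. Nothing about the members is therefore read from the counts of 12 and 5. Probe sets called between the control lines, 3944 in all, were 2470 to 3575 when arrays were left out. Those called higher after re-watering were 958 to 1753 in Han21 (1906 with all arrays) and 749 to 1349 in Ye478 (1458), lowest without replicate 2. List genes called in Ye478 were 3 to 6, with 3 without replicate 1 or 2 of all groups and without replicate 1 or 2 of the re-watered Ye478 group.

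Without each replicate 19 to 21 probe sets met the rule, 15 to 19 of them members. With a drought limit of 0.4 10 met it and with 0.8 35, and with a smallest rise of 0.8 39. Median centring kept 14 members. The cause was not tested. Of the 22, 9 met the rule under all 7 settings that kept its thresholds, and Zm.2329.1.S1_at under 1. The median rise of the members, an alternative added after seeing the data, was 1.51 to 1.77 in Han21 and 1.56 to 1.70 in Ye478. Of the control differences of single members, 341 values kept their side of the threshold, 46 lost it and 9 gained it, and none of those called in the main setting changed sign. Promoter motifs were not run, since no promoter sequences were used here. Signals of Zm.2329.1.S1_at and Zm.5979.1.A1_at outside re-watering lie near background, which limits their fold.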

Other observations

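Among the probe sets just outside the limits, GAPN read 1459, 1514 and 1388 units in Han21 control and 2575, 3240 and 2563 after re-watering, and in Ye478 827, 850 and 877 against 2770, 2818 and 2717. In both lines the re-watered arrays were far above control, and only its Han21 rise of 0.94 kept it out. The sat2 signals were 135, 106 and 228 units in Han21 control and 403, 284 and 353 after re-watering, and in Ye478 120, 83.2 and 189 against 296, 192 and 298. For sat2 the replicates of a line spread widely, and the re-watered arrays of each line lay above its controls.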
